A study of Arabidopsis thaliana with 22 samples.

Results

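COPT2 (At3g46900) and CCS (At1g12520) are copper genes of Arabidopsis thaliana, and each was measured by 1 probe set out of the 22746 non-control probe sets tested on the ATH1 arrays. The probe set of COPT2 was found through the study's own tables, which pair it with this locus, and that of CCS through the array annotation. The samples were roots of Landsberg erecta plants grown in hydroponic culture with Fe, whose roots were rinsed with EDTA, and which were then moved either into medium without Fe (Fe-deficient) or into medium with Fe (Fe-sufficient). Both kinds of root were taken at 0, 1, 6 and 24 h after this transfer, with 3 arrays per medium at 0, 1 and 6 h and 2 arrays per medium at 24 h, 22 arrays in all. The rinse, the transfer and the growth light were shared by both media, and the roots of many plants were pooled for each sample. The nutrient solution held copper as a sulphate and Fe as its EDTA chelate, and whether the solution without Fe still held EDTA is not stated in the methods, so the supply of Fe and that of its chelator cannot be told apart. According to the methods the samples came from independent experiments, and RNA was used only from those plant batches in which the Fe-deficient roots had raised their ferric-chelate reductase activity by 24 h, so the batches had been chosen for a response to Fe.

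Plants take up copper at the root surface after it has been reduced, and transporters of the COPT family carry the reduced ion across the membrane into the cell. COPT2 is a member of this family at the plasma membrane and is known to be expressed more strongly when copper is short. CCS is the chaperone that hands copper to the Cu/Zn superoxide dismutases, and its transcript is a known target of a microRNA that accumulates under copper shortage. The study put COPT2 on its list of transcripts raised by Fe deficiency, a list drawn from these same arrays, so its direction below is not independent evidence for that list.

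Immediately after transfer, at 0 h, COPT2 showed no difference between the media that exceeded the replicate spread. Its intensity, a linear value scaled alike on all arrays, was 197, 256.3 and 104 in Fe-deficient roots, against 236, 182 and 216 in Fe-sufficient roots. The groups overlapped, and the lowest value belonged to Fe-deficient replicate 3. The log2 change, Fe-deficient minus Fe-sufficient, was -0.27 with a 95% interval of -1.67 to 1.13 (limma, unadjusted p = 0.69, adjusted p = 1.00).

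At 1 h, all Fe-deficient arrays lay above all Fe-sufficient arrays for COPT2. The intensities were 272, 257 and 184 in Fe-deficient roots and 173, 108 and 104 in Fe-sufficient roots. The nearest arrays of the 2 groups were Fe-deficient replicate 3 and Fe-sufficient replicate 1. Such a complete separation upward was seen in 2.7% of all probe sets at this time. The log2 change was 0.90 with an interval of -0.50 to 2.31, and it did not pass the criterion used in the study, which asks for an unadjusted p under 0.05 together with a change above 1.5-fold (limma, unadjusted p = 0.191, adjusted p = 1.00). With the spread taken from the 1 h arrays alone, the same change of 0.90 passed that criterion (limma, unadjusted p = 0.0204). It did not pass the adjustment over all probe sets in that fit either, and the share of all probe sets called there is not given here.

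At 6 h, the transcript abundance of COPT2 rose in Fe-deficient roots. The intensities were 862, 392.3 and 1118 in Fe-deficient roots, against 376, 81.9 and 73.0 in Fe-sufficient roots. The groups did not overlap, although the lowest Fe-deficient array and the highest Fe-sufficient array, replicates 2 and 1, lay close together. The means were 791 ± 368 and 177 ± 173 in Fe-deficient and Fe-sufficient roots (SD, n = 3 each). The fitted change was 2.45 on the log2 scale (SE 0.66, interval 1.05 to 3.86), or 5.48-fold. It passed the study's criterion (limma, unadjusted p = 0.00195) but not the adjustment over all probe sets (adjusted p = 1.00). At this time 0.976% of all probe sets passed the criterion upward, and 2.75% had Fe-deficient arrays all above the Fe-sufficient arrays. The change was number 12 in size among the upward changes of all 22746 probe sets. Leaving out each array in turn moved it between 2.03 and 3.21, the highest value without Fe-sufficient replicate 1, with the criterion passed each time. In pooled roots a higher level per cell and a larger share of COPT2-expressing cells cannot be told apart.

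At 24 h the replicates of COPT2 parted. Fe-deficient roots had 1909 in replicate 1 and 343 in replicate 2, against 166 and 442 in the Fe-sufficient roots. Fe-deficient replicate 1 was the highest of all 22 arrays, while replicate 2 of the same medium lay below replicate 2 of the Fe-sufficient roots. The mean intensities were 1126 ± 1107 in Fe-deficient roots and 304 ± 195 in Fe-sufficient roots (SD, n = 2 each). The log2 change was 1.58 (SE 0.81, interval -0.14 to 3.30) and was not past the criterion (limma, unadjusted p = 0.0697, adjusted p = 1.00), which 0.765% of all probe sets passed upward. It was 0.34 without Fe-deficient replicate 1 and 2.81 without Fe-deficient replicate 2. Without Fe-deficient replicate 2 it passed the criterion, as it did at 2.28 without Fe-sufficient replicate 2, at 1.48 with a pseudocount of 32, and at 1.58 with the 24 h arrays paired across replicate numbers, an alternative chosen after seeing the data (limma, unadjusted p = 0.0258).

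**Figure D1:**
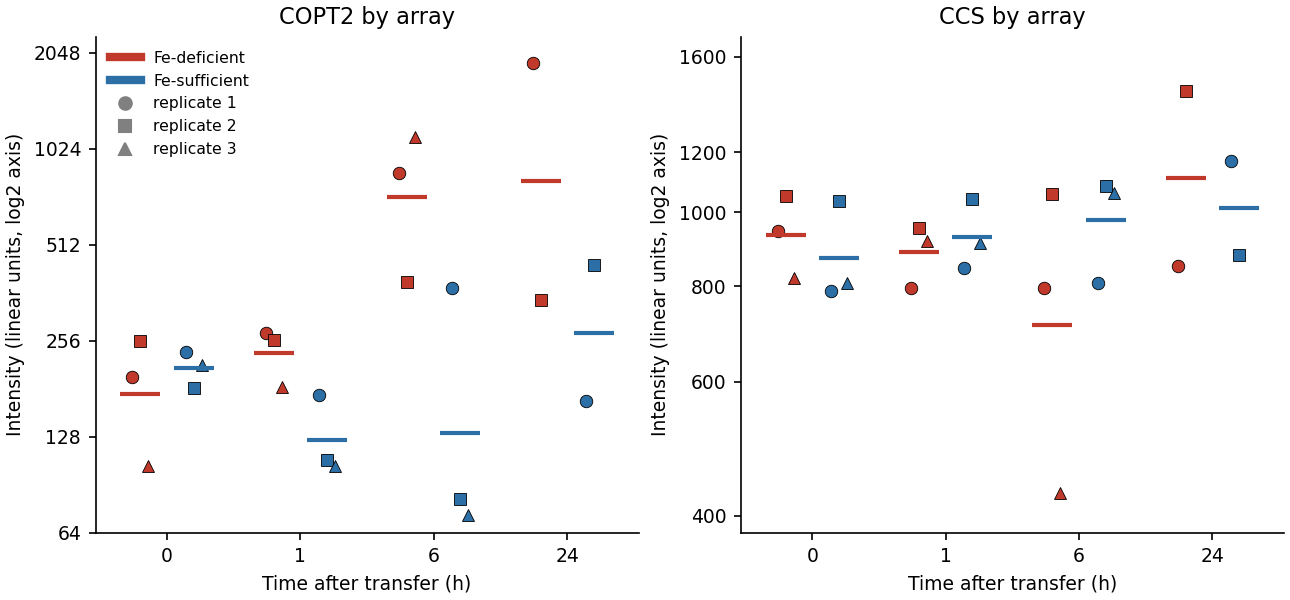
Intensity of COPT2 (left) and CCS (right) on each of the 22 arrays, on log2 axes of linear intensity, against hours after transfer; red is Fe-deficient, blue is Fe-sufficient, marker shapes give the replicate number and bars give the mean of the log2 values. COPT2 at 6 h lies between 392.3 and 1118 in Fe-deficient roots and between 73.0 and 376 in Fe-sufficient roots, whereas the media overlap at every time for CCS.

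The mean response of COPT2 over 6 and 24 h was 2.01 on the log2 scale (SE 0.52, interval 0.90 to 3.12), and 0.725% of all probe sets passed the criterion upward for this value, COPT2 among them (limma, unadjusted p = 0.00144, adjusted p = 0.86). An exact two-sided permutation test, with the media exchanged among the arrays of the same time, gave p = 0.05 for the same value, of 120 possible relabellings and a smallest possible p of 0.0167. Without Fe-deficient replicate 1 of 24 h the mean response was 1.40, and without replicate 2 it was 2.63, past the criterion in both cases. After Benjamini-Hochberg adjustment over the 6 exact permutation tests run on the 2 genes the p of 0.05 became 0.15. Over all 4 times the mean difference was 1.17 (exact permutation p = 0.017, adjusted 0.102). Over 0 and 1 h it was 0.32 (exact permutation p = 0.295).

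The response of COPT2 differed between times in 1 of the 6 pairs of times tested. It was larger at 6 h than at 0 h by 2.72 on the log2 scale (SE 0.94), a difference that passed the criterion (limma interaction, unadjusted p = 0.0103, adjusted p = 1.00) as did 0.805% of all probe sets upward. With each array left out in turn it stayed past the criterion, at 2.30 to 3.48, the highest without Fe-sufficient replicate 1 of 6 h. The difference between 6 h and 1 h was 1.55 (limma, unadjusted p = 0.117; 2.31 and past the criterion without Fe-sufficient replicate 1 of 6 h) and that between 24 h and 6 h was -0.88 (limma, unadjusted p = 0.415). The other 3 differences between times had unadjusted p of 0.097 to 0.529 with limma. Arrays with the same replicate number gave differences of -0.26, 0.49 and -1.04 at 0 h, of 0.65, 1.24 and 0.82 at 1 h, and of 1.19, 2.25 and 3.92 at 6 h. COPT2 was thus higher in the Fe-deficient array of 1 of 3 pairs at 0 h and of 3 of 3 pairs at both 1 and 6 h. At 24 h the same-numbered arrays differed by 3.52 and -0.36, but over all probe sets these arrays deviated in opposite directions (r = -0.407), so the numbers did not mark matched arrays there.

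Set against the 0 h roots of the same medium, COPT2 rose in the Fe-deficient roots. The change from 0 h was 0.43 at 1 h, 2.05 at 6 h and 2.21 at 24 h in Fe-deficient roots, and the changes at 6 h (limma, unadjusted p = 0.00699, adjusted p = 0.49) and 24 h (limma, unadjusted p = 0.00873, adjusted p = 0.67) passed the criterion. Upward changes of this kind were called for 1.83% of all probe sets at 6 h and 1.33% at 24 h. Without Fe-deficient replicate 1 of 24 h, the 24 h change was 0.98 and no longer passed, and without replicate 2 it was 3.45. In the Fe-sufficient roots the changes from 0 h were -0.75 at 1 h, -0.67 at 6 h and 0.37 at 24 h, none past the criterion with all arrays. Without Fe-sufficient replicate 1 of 6 h, the 6 h change was -1.43 and passed (limma, unadjusted p = 0.0376). The Fe responses and these changes share arrays and are not independent of each other. According to the methods the experiment began early in the light period, so the 24 h harvest fell at the clock hour of the 0 h harvest. Within a medium, changes of either gene from 0 h to 1 and 6 h thus hold time of day, handling and time after transfer, which cannot be told apart.

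CCS did not differ between the media at any of the 4 times by the study's criterion, and its groups overlapped at each. At 0 h its intensity was 944, 1050.5 and 821 in Fe-deficient roots, against 789, 1036 and 808 in Fe-sufficient roots. At 1 h it was 796, 956 and 916 in Fe-deficient roots, against 846, 1040.0 and 912 in Fe-sufficient roots. The 6 arrays of each of these times thus covered a narrow range. The log2 change was 0.10 at 0 h (interval -0.48 to 0.68; limma, unadjusted p = 0.72) and -0.07 at 1 h (limma, unadjusted p = 0.81).

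At 6 h, 1 array stood away from the rest for CCS. The intensities were 795, 1056 and 429 in Fe-deficient roots and 808, 1084 and 1062 in Fe-sufficient roots. Fe-deficient replicate 3, the lowest of all 22 arrays for CCS, was also the array with the highest COPT2 of its group. The log2 change was -0.46 (interval -1.04 to 0.13; limma, unadjusted p = 0.118, adjusted p = 1.00), where 1.15% of all probe sets were called lower. Without Fe-deficient replicate 3 it was -0.09, and without Fe-deficient replicate 2 it was -0.74 and passed the criterion. All 3 same-numbered pairs were lower in the Fe-deficient roots at 6 h, by -1.30 to -0.02, and all 3 were higher at 0 h, by 0.02 to 0.26. Replicates 1 and 2 at 6 h differed by only -0.02 and -0.04, and the share of all probe sets with these signs was not computed.

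At 24 h the intensities of CCS were 852 and 1445 in Fe-deficient roots, against 1167 and 879 in Fe-sufficient roots. The 2 Fe-deficient arrays enclosed both Fe-sufficient arrays. The log2 change was 0.13 (interval -0.58 to 0.85; limma, unadjusted p = 0.703), and these intervals leave room for changes of CCS in both directions. The mean over 6 and 24 h was -0.16 (limma, unadjusted p = 0.466; exact permutation p = 0.55), and the differences between times were -0.39 for 6 h against 1 h and 0.59 for 24 h against 6 h (limma, unadjusted p = 0.334 and 0.197). From 0 h, CCS changed by -0.07, -0.39 and 0.25 at 1, 6 and 24 h in Fe-deficient roots, and by 0.09, 0.16 and 0.22 in Fe-sufficient roots, with none past the criterion when all arrays were used. Without Fe-deficient replicate 2 of 6 h, the change to 6 h in Fe-deficient roots was -0.68 (limma, unadjusted p = 0.0252) and the difference of 24 h against 6 h was 0.87 (limma, unadjusted p = 0.0475), both past the criterion.

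**Figure D2:**
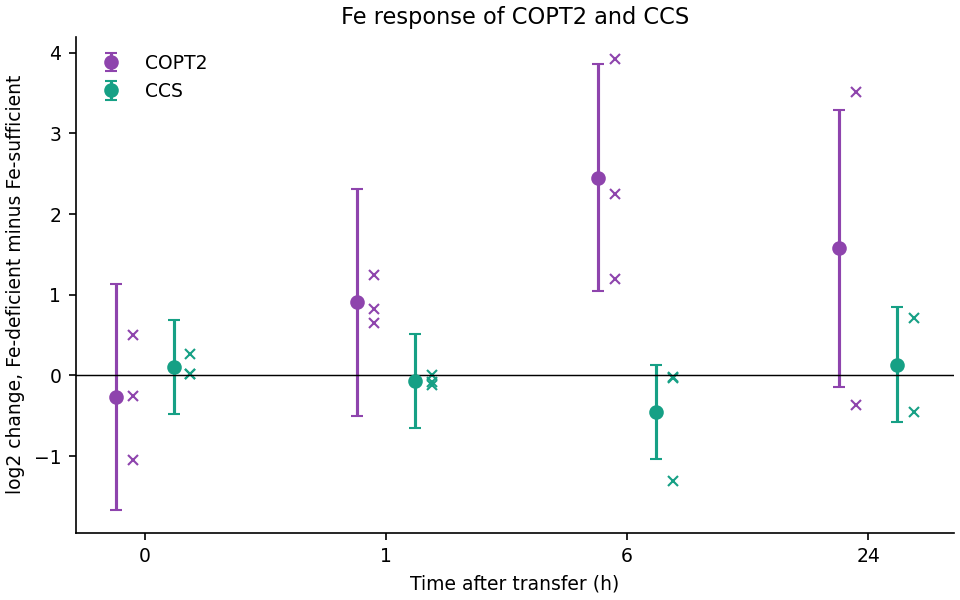
Fe response of COPT2 (purple) and CCS (green) as log2 change, Fe-deficient minus Fe-sufficient, against hours after transfer; dots are fitted changes, bars their 95% intervals from limma, and crosses the differences between arrays of the same replicate number. The interval of COPT2 lies above 0 at 6 h, from 1.05 to 3.86, and the intervals of CCS contain 0 at all 4 times.

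In order of its mean log2 level, COPT2 was lowest in Fe-sufficient roots at 1 h (6.97) and 6 h (7.05). It was followed by Fe-deficient roots at 0 h (7.45), Fe-sufficient roots at 0 h (7.72), Fe-deficient roots at 1 h (7.88) and Fe-sufficient roots at 24 h (8.09). The Fe-deficient roots at 6 h (9.50) and 24 h (9.66) stood at the top. The widest step lay below these last 2 groups, 1.41 between Fe-deficient roots at 6 h and Fe-sufficient roots at 24 h (limma, unadjusted p = 0.0743). No neighbours in this order differed beyond their spread. For CCS the order ran from Fe-deficient roots at 6 h (9.48) to Fe-deficient roots at 24 h (10.12), with no step above 0.29 and no neighbours that differed (limma, unadjusted p = 0.306 for the widest step).

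COPT2 varied between replicates more than most probe sets of its intensity. Within single groups, its SD on the log2 scale was 0.67, 0.30, 0.79 and 1.75 in Fe-deficient roots at 0, 1, 6 and 24 h, and 0.19, 0.41, 1.31 and 1.00 in Fe-sufficient roots. The highest and the lowest array of 1 group were 5.56-fold apart in Fe-deficient roots at 24 h and 5.15-fold apart in Fe-sufficient roots at 6 h. Over all groups the residual SD was 0.85, which exceeded that of 96.0% of the 1000 probe sets nearest in mean level, whose median was 0.29. The spread was of similar size in both media, 0.87 in Fe-deficient and 0.83 in Fe-sufficient roots. CCS had a residual SD of 0.34, above 77.6% of its 1000 nearest probe sets, whose median was 0.23, with 0.43 in Fe-deficient and 0.22 in Fe-sufficient roots.

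**Figure D3:**
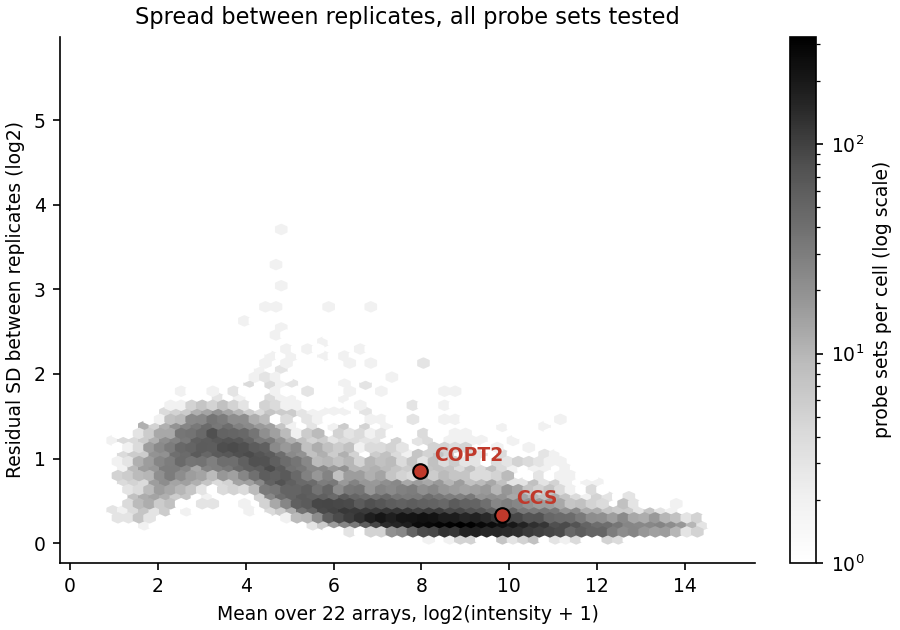
Residual SD between replicates (log2) against the mean log2(intensity + 1) over 22 arrays; grey cells count probe sets on a log colour scale, and red dots mark COPT2 and CCS. COPT2 at 0.85 lies above the dense band at its level, whereas CCS at 0.34 lies near the upper edge of that band.

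The deviations of the 2 genes from their group means ran in opposite directions. Over the 22 arrays Pearson's r was -0.67 (permutation within groups, two-sided p = 0.0187) and Spearman's rho was -0.64 (permutation p = 0.0444), the only pair of genes for which this was tested. The permutation takes the arrays of a group as exchangeable, whereas arrays with the same replicate number deviated together at 0, 1 and 6 h, so these p-values do not allow for that dependence. In 7 of the 8 groups the array with the highest COPT2 was the array with the lowest CCS, the exception being Fe-deficient roots at 0 h. The array with the lowest COPT2 was the array with the highest CCS in 4 of the 8 groups. At 24 h, with 2 arrays per group, these 2 patterns are the same event. In groups this small such matches also arise often by chance, and no such count was made for other pairs of genes. When arrays were left out, r stayed negative while its p-value rose past 0.05 in several cases. Smaller groups also leave fewer relabellings, so a higher p-value alone does not show that the relation rested on the arrays left out. Without the 2 arrays farthest from the median of COPT2 (Fe-sufficient replicate 1 of 6 h and Fe-deficient replicate 2 of 24 h), r was -0.62 (permutation p = 0.0521) and rho was -0.53 (permutation p = 0.118), no longer past 0.05. Without Fe-sufficient replicate 1 of 6 h alone r was -0.66 (permutation p = 0.0789), without the arrays of 6 h it was -0.65 (permutation p = 0.274) and without those of 24 h -0.55 (permutation p = 0.0731).

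The replicate numbers also showed in the levels of CCS. At 0, 1 and 6 h it was higher in replicate 2 than in replicate 1, and higher than in replicate 3, in 6 of 6 groups. Its intensity at these times was 956 to 1084 in replicate 2, 789 to 944 in replicate 1 and 429 to 1062 in replicate 3. At 24 h CCS in replicate 2 was above replicate 1 in Fe-deficient roots (1445 against 852) but below it in Fe-sufficient roots (879 against 1167). COPT2 at 0, 1 and 6 h was higher in replicate 2 than in replicate 1 in 1 of 6 groups, and higher than in replicate 3 in 4 of 6 groups. Within each replicate number, the deviations of the 2 genes correlated at r = -0.83 (8 arrays of replicate 1), -0.78 (8 arrays of replicate 2) and -0.80 (6 arrays of replicate 3), values given as a description. With 2 arrays per medium at 24 h, the deviations of replicates 1 and 2 there are mirror images (COPT2 1.24 and -1.24 in Fe-deficient roots). The values for replicates 1 and 2 are thus not independent of each other, and the numbers did not mark matched arrays at 24 h. Within Fe-deficient roots r was -0.64 (permutation p = 0.251), and within Fe-sufficient roots it was -0.84 (permutation p = 0.0163).

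**Figure D4:**
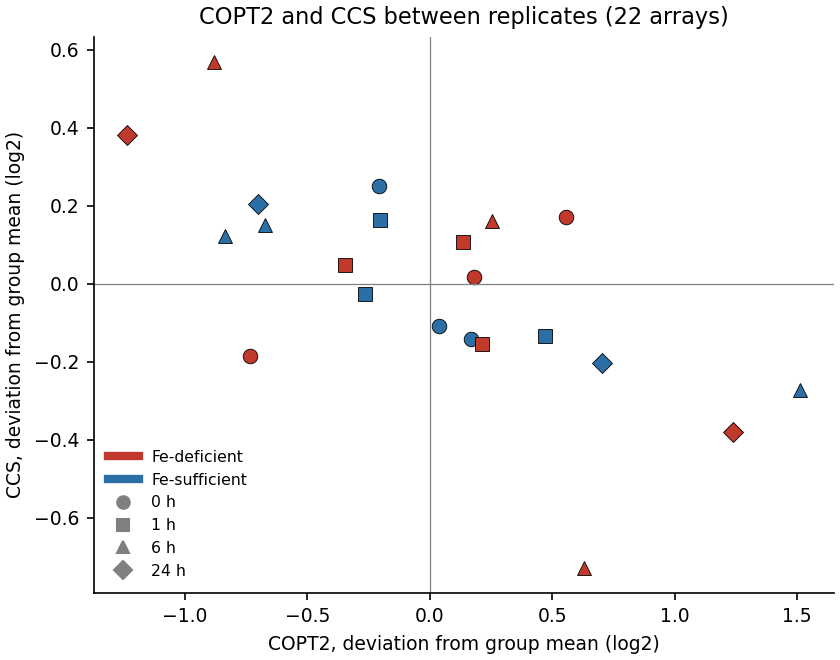
Deviation of CCS from its group mean against that of COPT2, both as log2 values, for 22 arrays; red is Fe-deficient, blue is Fe-sufficient and marker shapes give the hour. Points run from the upper left to the lower right, with r = -0.67.

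None of the 6 other copper genes measured was called at any of the 4 times in the fit over all 22 arrays. From a list of 50 loci for copper transporters, chaperones, superoxide dismutases, regulators, copper proteins and metallothioneins, 8 had a named probe set, COPT2 and CCS included, and the others were not analysed here. Of these 8, the number called at 0, 1, 6 and 24 h was 0, 0, 1 and 0, the 1 being COPT2 at 6 h, beside 2.04%, 1.87%, 2.13% and 1.47% of all probe sets called in either direction. COPT2 had its named probe set through the study's tables, which list it as raised by Fe deficiency on these same arrays. Its place among the 8 is thus not independent of its call, and 1 of 8 cannot be weighed against these shares. The median log2 change of the list was 0.05 at 0 h, 0.04 at 1 h, 0.01 at 6 h and 0.13 at 24 h, against 0.01, 0.01, -0.02 and -0.0001 over all probe sets. Without COPT2 and CCS, the median of the other 6 genes was 0.12, 0.04, 0.01 and -0.0006 at these times. MT1C, a metallothionein that binds metal ions through cysteines, had intensities of 15161 to 25507. ARPN, the small blue copper protein plantacyanin, had 487 to 2484, and CUTA had 802 to 1668. The changes of these 3 genes and of the loci At1g02410, At3g15640 and At1g71200 lay between -0.17 and 1.21 at 6 h. The highest of them was that of At1g71200 (1.21, SE 0.76; limma, unadjusted p = 0.13), a dim probe set with intensities of 5.1 to 101.6. In some of the alternatives described below, At1g71200 was called higher at 6 h. Its 2 brightest arrays, Fe-deficient replicate 3 of 6 h with 101.6 and Fe-deficient replicate 1 of 24 h with 94.0, were the 2 arrays with the highest COPT2.

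**Figure D5:**
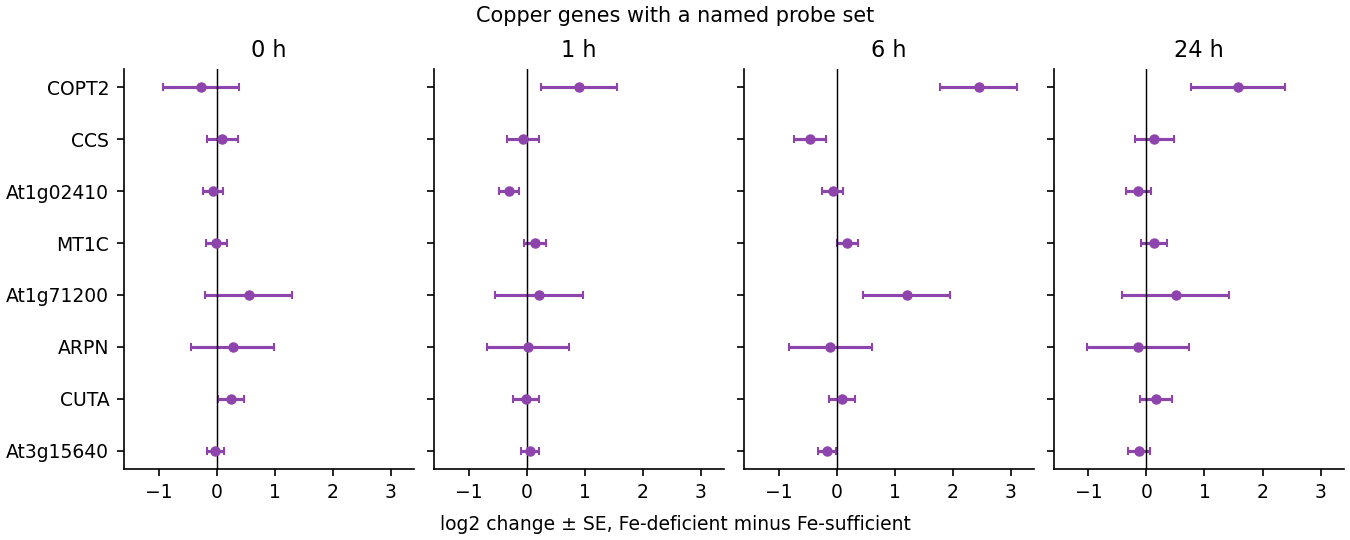
Log2 change, Fe-deficient minus Fe-sufficient, with its standard error from limma, for the 8 copper genes with a named probe set at each of the 4 times. COPT2 at 6 h, with 2.45, is the point past the study's criterion.

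The probe sets most like COPT2 were ranked by Pearson's r of the log2 values over the 22 arrays, among 6043 other named probe sets above the median intensity. The first was FRU (At2g28160), known as FIT, the basic helix-loop-helix regulator of root Fe uptake, with r = 0.90 (rho = 0.84). ORG1 followed with 0.83, and the loci At3g12900, At5g19970 and At1g23040 followed with 0.80, 0.80 and 0.78. These values hold both the differences between groups and those between replicates. With the group means taken out, r was 0.79 for FRU, 0.60 for ORG1 and between 0.56 and 0.72 for the other 3 loci. Ranking by Spearman's rho gave 3 of the same 5 genes. FRU, ORG1 and At3g12900 are, like COPT2, on the study's lists of transcripts raised by Fe deficiency, drawn from these same arrays. The study's tables also gave 40 of the named probe sets their names, which favours such genes in a ranking of named probe sets. The likeness of COPT2 to these genes is thus not independent of those lists.

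For CCS the closest pattern was that of At3g24200 (r = 0.77), followed by At4g39900 (0.73), At1g09160 (0.71), IGPD (0.71), an enzyme of histidine synthesis, and TET2 (0.69), a tetraspanin. With the group means taken out, r was 0.73 for At3g24200, 0.73 for At4g39900, 0.83 for At1g09160, 0.79 for IGPD and 0.71 for TET2. Ranking by Spearman's rho shared 0 of the 5 genes. The 2 copper genes themselves had r = -0.46 with each other over the log2 values.

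The arrays were alike in scale, with median intensities of 181 to 210.3. Of the root markers, EXPA7, an expansin of root hairs, was the 1 with a named probe set of 10 listed, and its intensity was 90.0 to 578 in Fe-deficient roots and 108 to 500.5 in Fe-sufficient roots. Of 9 markers of green shoot tissue, 2 had a named probe set (RCA and LHCB2.2), and their summed intensity was 55.6 to 196 in Fe-deficient roots and 60.7 to 204 in Fe-sufficient roots. No marker of phloem, of 3 listed, had a named probe set. EXPA7 also followed the replicate numbers, with 288 to 578 in replicate 1, 90.0 to 171 in replicate 2 and 130.5 to 263 in replicate 3 at 0, 1 and 6 h. At 24 h EXPA7 had 450.4 and 211 in replicates 1 and 2 of Fe-deficient roots, against 240 and 449.6 in those of Fe-sufficient roots. COPT2 at 24 h was highest in an array with high EXPA7 and CCS highest in an array with low EXPA7. At 6 h the pattern was otherwise: Fe-deficient replicate 3 had the highest COPT2 (1118) and the lowest CCS (429) of its time. In that replicate number EXPA7 was only 144.6 to 262.5 in Fe-deficient roots at 0, 1 and 6 h. The part of these differences between replicates in the values of COPT2 and CCS was not tested.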

How the data were processed

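Root RNA of 22 samples was hybridised to Affymetrix ATH1 arrays, 1 sample per array. The deposited values are linear intensities, 1 per probe set and array, which the authors had scaled so that the trimmed mean of each array lay at 500.04 to 500.05. The methods name a robust probe-level model, which gives log2 values. The program behind the deposited linear intensities is not given in the sources used here. Array designs keep no counting depth, and the number of arrays limits the precision.

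After removal of 64 control probe sets from 22810, 22746 were tested and 13476 of them named through the array annotation, the RefSeq gene table (TAIR10.1 names only) or, for 40, the study's tables; 503 probe sets with several genes were left unnamed. Groups (medium by hour) and replicate numbers follow the sample labels. log2(intensity + 1) was fitted with limma 3.58.1 in R 4.3.3 over 8 groups (14 residual and 1.81 prior degrees of freedom). The study's criterion, an unadjusted p under 0.05 and a change over 1.5-fold, was used with the Benjamini-Hochberg adjusted p over all probe sets beside it. The study applied this criterion to its own normalised values and reported far fewer genes at each of these hours. Calls made here on the deposited intensities are therefore not the study's calls. By the adjusted p, limma called 0, 1, 2 and 0 probe sets at 0, 1, 6 and 24 h, against 637, 544, 620 and 357 with an unadjusted p under 0.05. Mean responses over sets of times were also tested by exact permutation of the media within each time, with no exact test of a single time. The correlation was tested by 100000 permutations within groups (Python 3.11.15). The fit was tested on simulated data.

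COPT2 and CCS, the gene lists and the rules for named genes (both genes on every array, the copper list, and the 5 most similar genes) were chosen with earlier results of these data known. Arrays with the same replicate number deviated together at 0, 1 and 6 h (r = 0.124 to 0.448 over probe sets), but oppositely at 24 h (r = -0.407). Alternatives were other pseudocounts, centring, quantile normalization, a filter on dim probe sets, single-time fits, replicate blocks and each array left out.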

Additional observations from a re-analysis of the deposited data

Results flagged for a closer look

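The Fe response of COPT2 was larger at 6 h than at 0 h by 2.72 on the log2 scale, by the test of the difference itself (limma interaction, unadjusted p = 0.0103, adjusted p = 1.00). COPT2 was higher in Fe-deficient roots in 3 of 3 same-numbered pairs at 6 h and in 1 of 3 at 0 h.

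The Fe response of CCS at 6 h minus that at 0 h was -0.56. It is listed because CCS was lower in the Fe-deficient array of all 3 same-numbered pairs at 6 h and higher in all 3 at 0 h. The interaction itself was not past the criterion (limma, SE 0.39, unadjusted p = 0.173). Replicates 1 and 2 at 6 h differed by only -0.02 and -0.04, and replicates 2 and 3 at 0 h by only 0.02 each. The share of all probe sets with these signs was not computed. Without Fe-deficient replicate 3 of 6 h the difference between 6 h and 0 h was -0.19. Without Fe-deficient replicate 2 of 6 h it was -0.84 and passed (limma, unadjusted p = 0.036). Groups of 2 or 3 arrays are too small for the test of single outlying samples.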

How the results depend on the processing

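Under the alternatives other than leaving out arrays, the Fe response of COPT2 at 6 h stayed between 2.16 and 2.49 and the mean over 6 and 24 h between 1.82 and 2.04, all past the criterion, as was 6 h minus 0 h at 2.38 to 2.78 (its alternatives were added after seeing the data). CCS passed it at no time. At 24 h, COPT2 passed with a pseudocount of 32 (1.48), and at 1 h with a fit to the compared times only (0.90). The replicate block, by number over all times or within each time, changed no call of COPT2 or CCS (2.45 at 6 h in each). A block within each time with the 24 h pairs crossed, chosen after seeing the data, called COPT2 at 24 h (1.58) and for 6 h minus 1 h (1.55), 678 and 735 probe sets at 1 and 6 h, and 2 and 1 copper genes at 6 and 24 h. The copper gene called beside COPT2 at 6 h was At1g71200. Blocks within each time could give no change from 0 h within a medium, since each block lies in 1 time. Of all probe sets, 465, 425, 484 and 334 were called at 0, 1, 6 and 24 h, against 191, 139, 228 and 151 with a pseudocount of 32, and 26, 32, 70 and 56 among probe sets above the median. Fitting the compared times only gave 734 at 24 h. With a pseudocount of 32, 1 copper gene was called at 24 h, and with the compared times only, 1 at 1 h. Ranking by Spearman's rho shared 3 of 5 genes for COPT2 and 0 of 5 for CCS. The correlation of COPT2 and CCS was -0.62 without the 2 farthest arrays and, in alternatives chosen after seeing the data, -0.65 without 6 h and -0.55 without 24 h. Where not given above, the cause of these shifts was not tested.

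With each array left out in turn, COPT2 ranged from -0.55 to 0.10 at 0 h (reversed without Fe-deficient replicate 3), from 2.03 to 3.21 at 6 h, from 0.34 to 2.81 at 24 h and from 1.40 to 2.63 for the mean of 6 and 24 h. At 24 h it also passed the criterion, at 1.58, without Fe-sufficient replicate 1 of 6 h. For COPT2, 24 h minus 6 h ranged from -2.11 to 0.36, 6 h minus 0 h from 2.30 to 3.48, 6 h minus 1 h from 1.13 to 2.31 (past the criterion at 2.31, without Fe-sufficient replicate 1 of 6 h), the change to 24 h from 0.98 to 3.45 in Fe-deficient and from -0.34 to 1.07 in Fe-sufficient roots, and that to 6 h in Fe-sufficient roots from -1.43 to -0.25 (past the criterion at -1.43, without the same array). CCS ranged from -0.14 to 0.0138 at 1 h, from -0.74 to -0.091 at 6 h, from -0.25 to 0.51 at 24 h (-0.07 without Fe-sufficient replicate 2) and from -0.35 to 0.0282 for the mean of 6 and 24 h (0.02 without Fe-deficient replicate 3 of 6 h). For CCS, 6 h minus 0 h ranged from -0.84 to -0.19, 24 h minus 6 h from 0.21 to 0.97, and the change in Fe-deficient roots from -0.17 to 0.01 at 1 h (0.0105 without replicate 2 of 0 h, 0.0031 without replicate 1 of 1 h), from -0.68 to -0.03 at 6 h and from -0.13 to 0.63 at 24 h. Without Fe-deficient replicate 2 of 6 h, CCS passed the criterion at 6 h (-0.74), for 6 h minus 0 h (-0.84), for 24 h minus 6 h (0.87) and for the change to 6 h in Fe-deficient roots (-0.68). Probe sets called ranged from 355 to 802 at 1 h (802 without Fe-sufficient replicate 1) and from 289 to 536 at 24 h (536 without Fe-deficient replicate 1), copper genes from 1 to 3 at 6 h (3 without Fe-deficient replicate 2) and from 0 to 1 at 24 h, and the correlation from -0.77 to -0.58. With 2 arrays per medium at 24 h, dropping 1 leaves a lone array assumed to vary like the other groups.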
